A study of Mus musculus with 12 samples.

Results

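Interferon-stimulated genes are the genes that cells switch on when they meet type I or type II interferon, and 35 of them were followed here: antiviral effectors, the STAT and IRF factors that drive them, RNA sensors, and the peptide-processing machinery of antigen presentation. The members were fixed as a list of gene symbols, and every probe annotated with one of those symbols was taken. Of the 35 genes, 34 had a probe, 59 probes among the 45281 of the array and 34 genes among 19057 named ones. Ifi44 had none under that symbol and was not analysed here. The detection filter left 22 members among 10082 tested genes, so every test of a member below is about those 22.

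RNA was profiled on Illumina bead arrays from NIH-3T3, a long-used mouse fibroblast line, whose cells carried PPARγ2, the fat-cell isoform of the nuclear receptor PPARγ, from a lentivirus and grew in blasticidin. The transgene was either the wild-type receptor or its E157D mutant, in which aspartate replaces glutamate in the DNA-binding domain. Cells of both kinds received DMSO, the vehicle, or 20 µM rosiglitazone, a thiazolidinedione agonist of PPARγ, for 24 h, which gives 4 groups of 3 arrays from 3 independent experiments. All 4 groups carry a transgene, so no group shows cells without added receptor and it is unstated whether a receptor was transduced once or several times. The arrays detected 36.7% to 39.6% of their probes and correlated at 0.988 to 0.994 within a group. The 3 Pparg probes were detected on 0 of 12 arrays, so receptor amounts were not measured.

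Type I interferon binds its receptor at the cell surface, and the kinases JAK1 and TYK2 then act on a complex that holds STAT2 and IRF9 and binds the interferon-stimulated response element. Interferon gamma acts through JAK1 and JAK2 and leads to binding at the gamma-activated site. Fibroblasts hold these genes at a low basal level without added interferon, and ligand-bound PPARγ is known in macrophages for repressing a part of the inflammatory genes.

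Sequence was set beside the arrays for the 30 members that matched the RefSeq promoter table of GRCm38.p6 by symbol; Dhx58, Mx1, Mx2, Oas2 and Usp18 did not match. Each window ran from 250 bases before to 50 after an annotated start. The response element was searched as GAAA, any 2 bases and GAAA, and on the other strand as TTTC, any 2 bases and TTTC. The gamma-activated site was searched as TTCNNNGAA, which is its own reverse complement. The first motif was held by 14 of the 30 members and by 3.99% of the 27025 genes in the table. The second was held by 8 members and by 9.55% of all genes. The exact repeat of AGGTCA with 1 base between the copies, the kind of sequence that PPARγ binds with RXR, was in the windows of 0 members and of 0.0481% of all genes. A match is a run of letters and not a measured binding site.

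The 160 bases before the start are printed for 9 members that passed a test below, 5′ to 3′ on the strand of the gene, with matches to either interferon motif in capitals. Isg15 (chr4:156200819-156200978, minus strand), Ifit3 (chr19:34583369-34583528, plus), Gbp2 (chr3:142620503-142620662, plus), Gbp3 (chr3:142559884-142560043, plus) and Apol9a (chr15:77411081-77411240, minus) show the response element in genes that were lower with rosiglitazone. Irf1 (chr11:53769854-53770013, plus) holds a gamma-activated site alone. Ifit2 (chr19:34550534-34550693, plus) and Irf9 (chr14:55603825-55603984, plus), among the members with the clearest falls, and Ubd (chr17:37193732-37193891, plus), which rose, hold neither motif in these bases. Irf2, Ddx58 and Oasl2 also passed a test and have a window but are not printed, and they hold neither motif in their 160 bases. Irf2 and Ddx58 hold a response element elsewhere in the window. Bst2, which passed no main test, holds both motifs in its 160 bases.
Isg15: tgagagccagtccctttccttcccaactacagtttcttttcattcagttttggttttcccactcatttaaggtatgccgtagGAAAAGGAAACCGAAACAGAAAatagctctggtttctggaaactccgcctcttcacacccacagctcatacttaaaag
Ifit3: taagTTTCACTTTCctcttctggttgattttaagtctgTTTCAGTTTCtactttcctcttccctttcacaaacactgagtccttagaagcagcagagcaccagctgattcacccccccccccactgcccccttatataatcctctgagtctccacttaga
Gbp2: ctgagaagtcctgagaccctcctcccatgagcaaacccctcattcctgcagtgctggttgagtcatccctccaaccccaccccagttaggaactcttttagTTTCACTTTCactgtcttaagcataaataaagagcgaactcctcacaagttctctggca
Gbp3: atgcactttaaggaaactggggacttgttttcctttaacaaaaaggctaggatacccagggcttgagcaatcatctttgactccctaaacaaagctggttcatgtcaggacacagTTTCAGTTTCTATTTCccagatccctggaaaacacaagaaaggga
Apol9a: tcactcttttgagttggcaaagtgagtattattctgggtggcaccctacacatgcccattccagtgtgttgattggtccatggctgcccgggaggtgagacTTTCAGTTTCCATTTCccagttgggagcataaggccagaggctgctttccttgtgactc
Irf1: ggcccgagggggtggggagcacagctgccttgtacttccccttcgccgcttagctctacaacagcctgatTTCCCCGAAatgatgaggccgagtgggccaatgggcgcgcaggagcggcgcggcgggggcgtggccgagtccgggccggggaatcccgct
Ifit2: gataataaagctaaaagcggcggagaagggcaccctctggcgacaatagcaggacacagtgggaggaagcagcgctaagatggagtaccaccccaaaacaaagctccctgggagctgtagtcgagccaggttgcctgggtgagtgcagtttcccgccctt
Irf9: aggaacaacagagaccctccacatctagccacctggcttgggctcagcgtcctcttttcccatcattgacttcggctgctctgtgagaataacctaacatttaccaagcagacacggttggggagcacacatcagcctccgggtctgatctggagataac
Ubd: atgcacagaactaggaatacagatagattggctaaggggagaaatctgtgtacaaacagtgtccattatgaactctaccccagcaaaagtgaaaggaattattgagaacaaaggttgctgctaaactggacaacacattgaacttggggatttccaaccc
In Isg15 the capitals cover 3 overlapping matches, and in Gbp3 and Apol9a 2 overlapping ones, whereas Ifit3 has 2 separate ones. Gbp3, Apol9a, Irf1, Ifit2 and Irf9 each have a further annotated start, and the most upstream one is shown. The further window overlaps the printed one for Apol9a and holds no match in its 160 bases for the other 4.

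**Figure D1:**
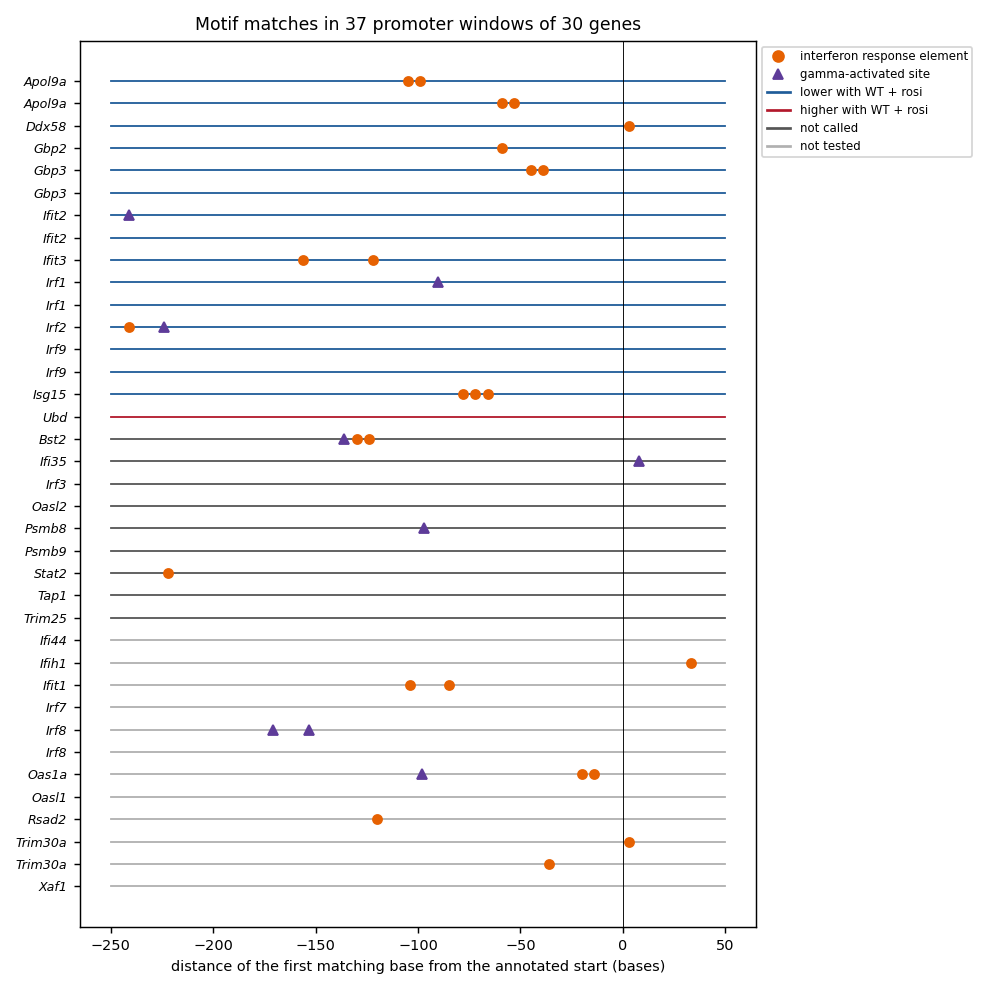
Matches to the interferon-stimulated response element (circles) and the gamma-activated site (triangles) in 37 promoter windows of 30 members, by distance in bases of the first matching base from the annotated start, with lines coloured by the wild-type rosiglitazone test. Among members lower with rosiglitazone, 7 of 10 with a window hold a response element, against 2 of 9 tested members that did not pass and 5 of 10 untested ones, and 3 of 10, 3 of 9 and 2 of 10 hold a gamma-activated site. The sets differ in windows searched: the response element is in 8 of 15, 2 of 9 and 6 of 12 windows, and the gamma-activated site in 3 of 15, 3 of 9 and 2 of 12.

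A first group of members was not detected in these cells. Ifit1, Oas1a, Oas2, Oasl1, Mx1, Mx2, Rsad2 and Xaf1 among the effectors, Irf7 and Irf8 among the regulators, and Ifih1 and Trim30a among the sensors were detected on 0 of 12 arrays in any group. The lowest detection p-value among these 12 genes was 0.0577, for Oasl1 and Mx2, and the value of Oas1a was 0.368. Several of them, such as Mx1, a GTPase that blocks influenza virus, and Rsad2, the radical-SAM enzyme viperin, are genes that interferon treatment raises strongly. Their absence from the calls is a limit of detection and says nothing of a change below it. The ligands Ifna2, Ifna4, Ifnb1, Ifng and Ifnl3 were likewise detected on 0 arrays.

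With the wild-type receptor, rosiglitazone lowered many of the interferon-stimulated genes that the arrays could measure. Of the 22 tested members 11 fell, 1 rose and 10 did not pass (limma, Benjamini-Hochberg adjusted p under 0.05 over all features). In the same comparison 26.7% of all 13006 features changed, 14.4% lower and 12.3% higher. Of these calls 46.0% were higher, and 55.9% after each array was scaled to the median of all its probes, where 1102 features were lower in place of 1876. The median log2 change was -0.50 over the 22 members and -0.029 over all features. The largest falls were those of Ifit2, Gbp2 and Ifit3, at 2.5-fold to 2.93-fold, and the gene that rose was Ubd, at 2.62-fold. All changes below are log2 differences of group means with the standard error of limma, n = 3 arrays per group. Whether the arrays of a gene overlap between groups comes from the same values as its test. It is no separate evidence and was not counted over all features.

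Among the effectors, 6 of the 10 tested fell and 0 rose. Ifit2, a tetratricopeptide protein that restrains viral translation, had normalized log2 levels of 9.40, 9.16 and 9.48 on the wild-type DMSO arrays and of 7.62, 8.04 and 7.72 with rosiglitazone. The groups lay more than a log2 unit apart, and Ifit2 fell by 1.55 (SE 0.16, adjusted p = 5.52e-05). Its neighbour Ifit3, which stabilises the Ifit complex on foreign RNA, went from 7.47, 8.46 and 8.49 to 6.16, 7.12 and 7.17, and fell by 1.32 (SE 0.35, adjusted p = 0.0166). The first array of each group was about a log2 unit below the other 2, and its SE was the largest among the 22 members, although the groups did not overlap. Near-identical Ifit3b transcripts may share the Ifit3 signal, which makes its assignment uncertain.

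The guanylate-binding proteins, GTPases that attack the vacuoles of intracellular pathogens, moved in step. Gbp2 stood at 10.29, 10.69 and 10.45 in DMSO and at 8.95, 9.22 and 8.95 with rosiglitazone, and fell by 1.44 (SE 0.14, adjusted p = 5.1e-05). Gbp3 went from 7.72, 8.07 and 8.02 to 6.87, 6.76 and 6.83, and fell by 1.12 (SE 0.17, adjusted p = 0.000729). For both genes every rosiglitazone array lay below every DMSO array. Apol9a, an apolipoprotein L of mice that interferon induces, had levels of 6.83, 6.95 and 7.04 in DMSO and of 5.74, 5.94 and 6.32 with rosiglitazone, and fell by 0.94 (SE 0.15, adjusted p = 0.000892). The arrays separated here too, but Apol9a and Apol9b are near-identical genes and a probe may read both.

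Isg15, the ubiquitin-like modifier, was less uniform, with 7.78, 8.45 and 8.70 in DMSO against 7.86, 7.49 and 7.62 with rosiglitazone. It fell by 0.65 (SE 0.20, adjusted p = 0.0332), and the groups overlapped because the lowest DMSO array was below the highest treated one. The other 4 effectors did not pass. Oasl2, an oligoadenylate synthetase-like protein, differed by -0.84 (adjusted p = 0.058), Bst2, the tetherin that holds budding virions, by -0.73 (adjusted p = 0.0762), Ifi35 by 0.13 and Usp18, the protease that removes ISG15 and damps the interferon receptor, by 0.53 (adjusted p = 0.21).

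**Figure D2:**
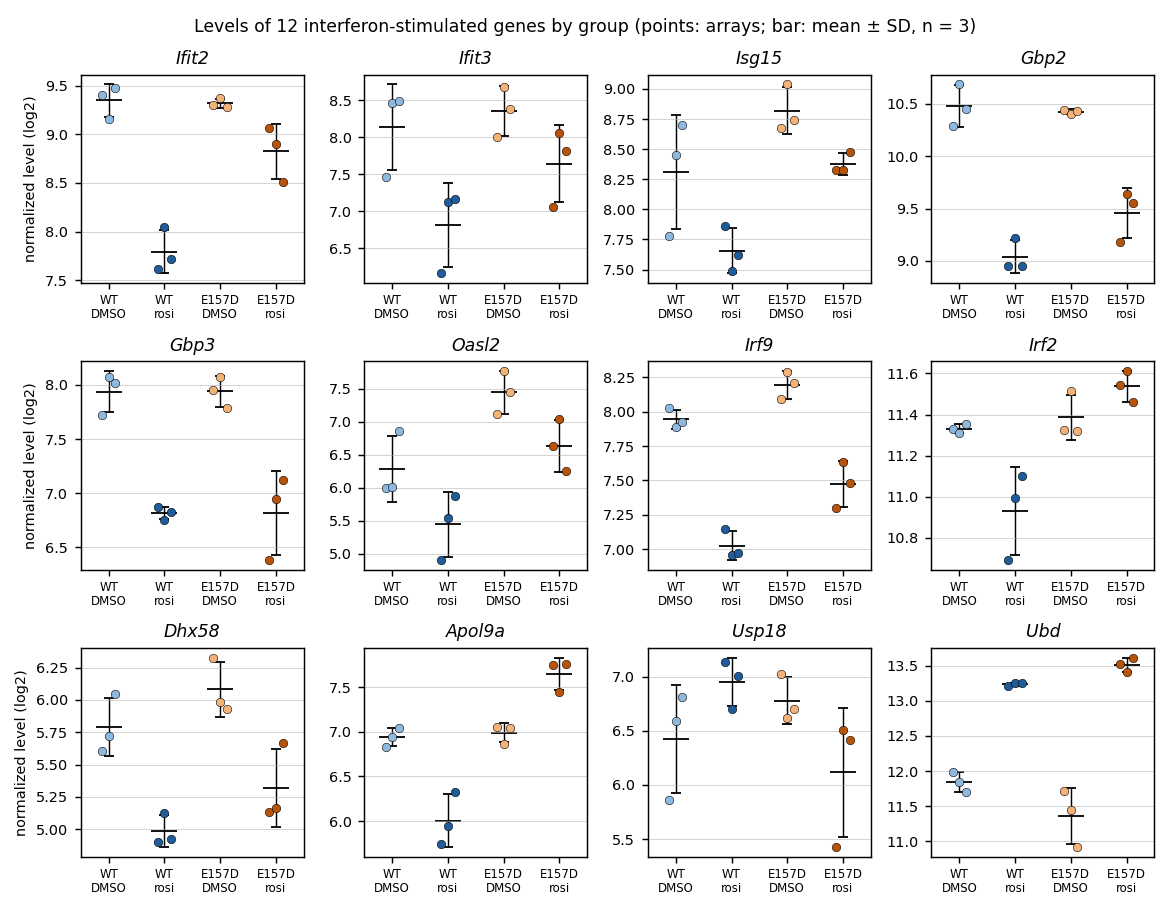
Normalized log2 level (vertical axis, a separate scale for each gene) of 12 members on the 3 arrays of each group, with points for arrays and bars for the mean and SD. Rosiglitazone arrays with the wild-type receptor lie below their DMSO arrays for Ifit2, Ifit3, Gbp2, Gbp3, Irf9, Irf2, Dhx58, Oasl2 and Apol9a, and above them for Ubd.

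Among the regulators, 3 of 5 fell. Irf9, the DNA-binding subunit of the type I interferon complex, stood at 8.02, 7.89 and 7.92 in DMSO and at 7.15, 6.95 and 6.97 with rosiglitazone, and fell by 0.92 (SE 0.11, adjusted p = 0.000171). This was the smallest adjusted p of a regulator, and the arrays of each group kept close, with an SD of 0.07 and 0.11. Irf2, an antagonist of IRF1 at shared elements, went from 11.33, 11.31 and 11.35 to 10.69, 10.996 and 11.10 and fell by 0.40 (SE 0.12, adjusted p = 0.0256). Irf1, an activator of the interferon gamma programme, went from 11.89, 11.91 and 11.86 to 11.50, 11.63 and 11.57 and fell by 0.32 (SE 0.11, adjusted p = 0.0456). Neither gene's groups overlapped, but both changes were under 1.5-fold. Irf3, the factor that sensors activate to start interferon transcription, differed by 0.048 and Stat2 by -0.33, and neither passed.

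Among the sensors and their modulators, 2 of 3 fell. Ddx58, which encodes the RNA helicase RIG-I, went from 7.48, 7.78 and 7.48 to 7.08, 7.17 and 7.09 and fell by 0.47 (SE 0.13, adjusted p = 0.0229). Dhx58, which encodes the related helicase LGP2, went from 5.61, 5.72 and 6.04 to 4.90, 5.13 and 4.93, a fitted fall of 0.81 (SE 0.17, adjusted p = 0.00511). Its probe was detected on 0 of the 3 rosiglitazone arrays, so the change is given as at least 1.22-fold lower, the DMSO mean against the lowest level that counted as detected. Trim25, the ubiquitin ligase that activates RIG-I, differed by 0.063 and did not pass.

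Among the 4 peptide-processing members 1 rose and 0 fell. Ubd, the ubiquitin-like FAT10 that sends proteins to the proteasome and is raised by interferon gamma and TNF, rose from 11.98, 11.84 and 11.71 to 13.21, 13.25 and 13.25. The rise was 1.39 (SE 0.17, adjusted p = 0.000158), and the groups were more than a log2 unit apart. The immunoproteasome subunits Psmb9 (-0.54, adjusted p = 0.0724) and Psmb8 (-0.09) and the peptide transporter Tap1 (-0.19) did not pass, and Psmb8 was detected on 1 of the 3 DMSO arrays and 0 of the treated ones. Psmb9 and Tap1 are neighbours on opposite strands, and their promoter windows share 275 of 300 bases.

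Both Isg15 and Irf2, with Irf1 and Ddx58, lost the call when arrays were scaled to their medians, and Ifit3 lost it without wild-type DMSO array 2 or 3 or wild-type rosiglitazone array 1 (adjusted p up to 0.0726). Irf1 lost it in 15 of 21 alternatives, 9 of which left out 1 array, Isg15 also without the detection filter or without DMSO array 2 or 3 or rosiglitazone array 2 or 3, Irf2 without any 1 of the DMSO arrays or rosiglitazone array 1, and Ddx58 without DMSO array 2 or rosiglitazone array 1 or 3. Without background correction Ifit3 fell by 0.72, Isg15 by 0.42, Irf9 by 0.50, Gbp3 by 0.59, Ddx58 by 0.25, Dhx58 by 0.24 and Apol9a by 0.35, each still past the threshold. The replicate numbers paired the arrays of this comparison, and with the number as a block 14 members fell, the further ones being Bst2 (adjusted p = 0.0236), Oasl2 (adjusted p = 0.0424) and Psmb9 (adjusted p = 0.0181). The block also raised the lower calls over all 13006 features, from 1876 to 2142.

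Cell markers moved in the same comparison. Of 8 tested fibroblast markers 7 were lower with rosiglitazone, Pdgfra, a growth factor receptor of mesenchymal cells, by 1.65, and all 4 tested adipocyte markers were higher, Cidec, a lipid droplet protein, by a fitted 5.15 on the log2 scale. The summed raw intensity of 9 fibroblast markers was 35859.7 to 45062 on the wild-type DMSO arrays and 24844 to 30725 with rosiglitazone, and that of 5 adipocyte markers rose from a range of 816 to 882 to one of 2586 to 3125. With the E157D receptor the fibroblast sum was 44773 to 55283 in DMSO and 37729.9 to 42526 with rosiglitazone, and the adipocyte sum 778 to 838 and 1004 to 1116. Their part in the results on interferon-stimulated genes was not tested, and in bulk RNA fewer cells of a type and less RNA per cell cannot be told apart. Leukocytes express many of these genes. The leukocyte markers Ptprc, Adgre1, Itgam, Cd3e and Tyrobp were detected on 0 arrays and Csf1r on 1. The summed intensity of the 7 leukocyte markers with a probe lay between 1074 and 1264 over all 12 arrays, with 1074 to 1161 and 1112 to 1177 in the wild-type groups and 1150.0 to 1264 and 1149.7 to 1222 in the E157D groups, while 1 of them, the lysozyme gene Lyz2, was lower by 0.80 with the wild-type receptor and rosiglitazone.

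With the E157D receptor fewer members passed in response to rosiglitazone: 4 of the 22 fell, 2 rose and 16 did not pass. Over all features 4.10% changed, 1.79% lower and 2.31% higher, and the median log2 change was -0.32 over the members and -0.012 over all features. Of all calls 56.3% were higher, and 77.9% after median scaling. The genes that fell were Gbp2, Gbp3, Irf9 and Dhx58, and those that rose were Ubd and Apol9a. The lower count is no evidence of a smaller response of any given gene, which the test of the difference below addresses.

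Gbp3 levels with the E157D receptor went from 7.96, 8.07 and 7.79 to 6.38, 6.95 and 7.12, and it fell by 1.13 (SE 0.17, adjusted p = 0.00376). The groups stood apart, although 1 treated array was well below the other 2. Gbp2 went from 10.45, 10.41 and 10.43 to 9.18, 9.64 and 9.55 and fell by 0.97 (SE 0.14, adjusted p = 0.00319). Irf9 went from 8.09, 8.29 and 8.21 to 7.30, 7.63 and 7.48 and fell by 0.73 (SE 0.11, adjusted p = 0.0038). Neither gene had an array of one treatment within the range of the other. Dhx58 went from 6.33, 5.98 and 5.93 to 5.13, 5.16 and 5.67, with 1 of the 3 treated arrays above detection, and fell by 0.76 (SE 0.17, adjusted p = 0.0295).

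Ubd rose further than any other member, from 11.71, 11.45 and 10.92 to 13.53, 13.40 and 13.60, by 2.15 (SE 0.17, adjusted p = 4.96e-05) or 4.43-fold. The treated arrays agreed closely, whereas the DMSO arrays spread over most of a log2 unit. Apol9a went from 7.06, 6.87 and 7.04 to 7.75, 7.45 and 7.76 and rose by 0.66 (SE 0.15, adjusted p = 0.0295). Every treated array of Apol9a was above every DMSO array, the reverse of its order with the wild-type receptor. Ifit2 (-0.49, adjusted p = 0.112), Isg15 (-0.44, adjusted p = 0.268), Ifit3 (-0.71, adjusted p = 0.313), Oasl2 (-0.81, adjusted p = 0.175) and Usp18 (-0.67, adjusted p = 0.249) had negative changes that did not pass.

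The Apol9a call ended without any 1 of the E157D DMSO arrays or without treated array 1 or 3 (adjusted p up to 0.114), and the Dhx58 call ended without any 1 of the DMSO arrays, without treated array 1 or 2, without background correction, with the authors' processed intensities and with the mean of its probes (adjusted p up to 0.125). The Irf9 call ended with the mean of its probes (adjusted p = 0.0509), and without background correction Gbp3 fell by 0.59, Irf9 by 0.44 and Apol9a differed by 0.35. Ifit2 passed as lower without background correction (-0.38, limma adjusted p = 0.0353).

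**Figure D3:**
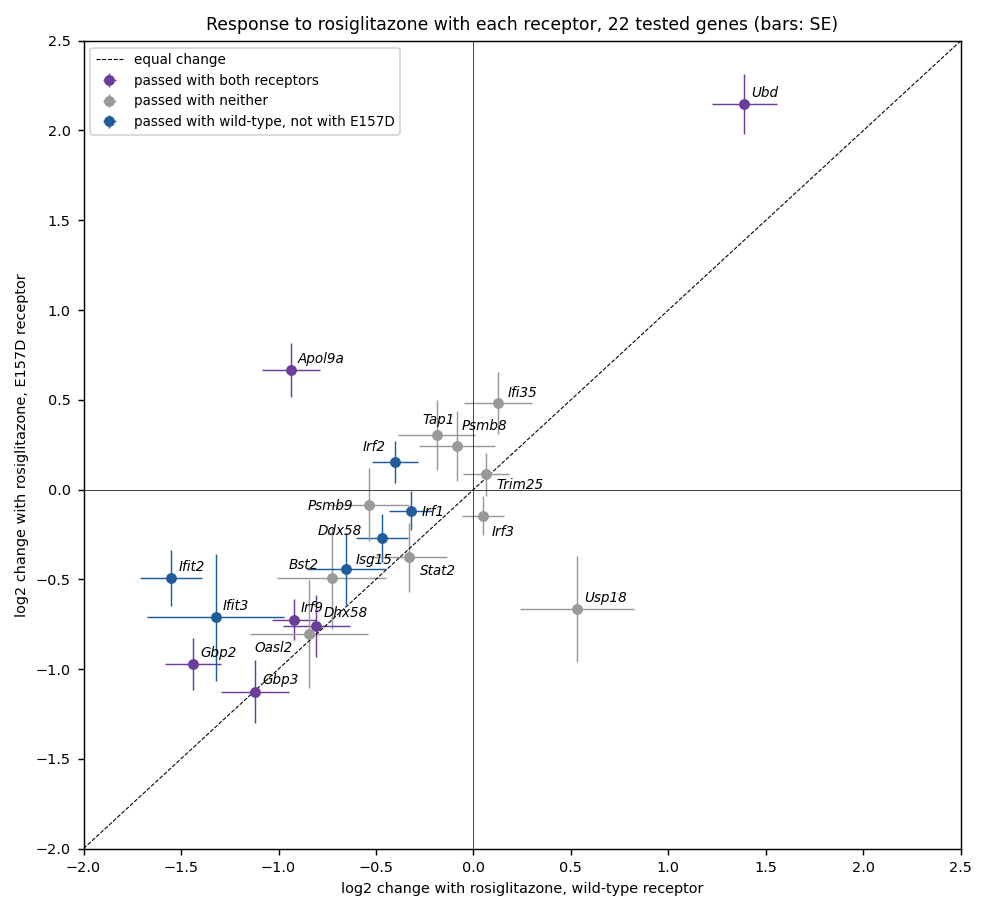
Log2 change with rosiglitazone for 22 members, with the wild-type receptor on the horizontal and the E157D receptor on the vertical axis, bars giving the SE and the dashed line equal change. Apol9a lies at -0.94 and 0.66, Ubd in the upper right at 1.39 and 2.15, and Gbp3, by the brighter of its 2 tested probes, on the line.

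The difference between the responses of the E157D and wild-type cells was tested as an interaction. It passed for 2 members, both higher with E157D, and for 2.38% of all features, 0.884% higher and 1.50% lower. For Apol9a the difference was 1.60 (SE 0.21, adjusted p = 0.00245), a fall with the wild-type receptor against a rise with E157D. For Ifit2 it was 1.06 (SE 0.22, adjusted p = 0.0297), where it fell by 1.55 with the wild-type receptor and differed by -0.49 with E157D. The median difference was 0.22 over the members and 0.024 over all features.

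The other 20 members did not pass, with differences from -1.20 for Usp18 (adjusted p = 0.174) to 0.76 for Ubd (adjusted p = 0.13). For Gbp3 the difference was -0.0039, with a 95% interval of -0.54 to 0.53, and for Irf9 it was 0.20, with an interval of -0.15 to 0.55. A second Gbp3 probe gave a difference of 0.63, outside that interval, which did not pass (limma adjusted p = 0.375). The interval for Ifit3, -0.48 to 1.70, held both 0 and the value of Ifit2. The Ifit2 call ended with the mean of its 2 probes and in 9 of 12 fits that left out 1 array, those without wild-type DMSO array 1 or 3, wild-type rosiglitazone array 1 or 3, any E157D DMSO array, or E157D rosiglitazone array 1 or 2 (adjusted p up to 0.0904). The Apol9a call held in all 21 alternatives (adjusted p up to 0.0093), although its value was 0.69 without background correction.

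Between the receptors in DMSO no tested member passed: 0 of 22 by limma, where 1.12% of all features passed (0.423% higher, 0.700% lower). An unadjusted p under 0.05 was reached by 4 members, a looser threshold at which all features were not counted. The median difference was 0.029 over the members and 0.0067 over all features, which median scaling of the arrays set at 0.121, with 55.6% of calls higher in place of 37.7%. The largest was that of Oasl2, with 5.99, 6.01 and 6.86 on the wild-type arrays and 7.12, 7.77 and 7.44 on the E157D arrays. Its groups did not overlap, and the difference of 1.16 (SE 0.30) had an adjusted p of 0.115. It passed under 3 alternatives, with adjusted p = 0.044 after median scaling, 0.0322 without background correction and 0.0405 with the authors' processed intensities. Isg15 differed by 0.51 (adjusted p = 0.361), Irf9 by 0.25 (adjusted p = 0.444) and Ubd by -0.48 (adjusted p = 0.273).

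In rosiglitazone 6 of the 22 members were higher with E157D and 0 were lower, where 19.8% of all features differed, 10.5% higher and 9.26% lower. The median was 0.33 over the members and 0.025 over all features. These values share the rosiglitazone arrays of both receptors with the responses above and are no separate evidence for them. Apol9a was the most different member, at 5.74, 5.94 and 6.32 with the wild-type and 7.75, 7.45 and 7.76 with the E157D receptor, a difference of 1.65 (SE 0.15, adjusted p = 1.91e-05) or 3.14-fold. Ifit2, at 7.62, 8.04 and 7.72 against 9.06, 8.90 and 8.51, differed by 1.03 (SE 0.16, adjusted p = 0.000883). In both genes the arrays of the receptors were well separated.

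Oasl2, with 4.90, 5.55 and 5.88 against 6.63, 7.03 and 6.25, was higher by 1.19 (SE 0.30, adjusted p = 0.0163), a difference close to its 1.16 in DMSO. Isg15, with 7.86, 7.49 and 7.62 against 8.33, 8.32 and 8.48, was higher by 0.72 (SE 0.20, adjusted p = 0.0269). Among the regulators, Irf2 was higher by 0.61 (SE 0.12, adjusted p = 0.00379) and Irf9 by 0.45 (SE 0.11, adjusted p = 0.0163). The arrays of the 2 receptors did not overlap for any of these 4 genes. The same was true of several members that did not pass, among them Irf1 and Usp18, and it was not counted over all features. Gbp2 (0.42, adjusted p = 0.0619), Ifit3 (0.83, adjusted p = 0.126) and Usp18 (-0.84, adjusted p = 0.0655) did not pass, and Gbp3 stood at -0.0028. Gbp2 passed under 7 of the alternatives, Usp18 under 4 and Ifit3 under 2, median scaling and the replicate block, which were also among those of Gbp2. With median scaling 9 members were higher in place of 6, Gbp2, Ifit3 and Tap1 (0.61, adjusted p = 0.0463) being added. That scaling also raised the higher calls over all 13006 features, from 1367 to 1998. In the same comparison all 4 tested adipocyte markers were lower with E157D, with a median of -3.24, and 3 of 8 fibroblast markers were higher, and 3 adipocyte markers were lower in the difference of the responses. Their part in these results was not tested.

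The Isg15 call ended without wild-type rosiglitazone array 2 or 3 or any E157D rosiglitazone array, the Oasl2 call without wild-type array 1 or E157D array 2, and the Irf9 call without array 2 of either receptor or with the mean of its probes. Median scaling put the median of all features at 0.173 and Irf9 at 0.69, with 77.4% of all calls higher in place of 53.2%, while without background correction Apol9a differed by 0.72, Isg15 by 0.45, Oasl2 by 0.39 and Irf9 by 0.23.

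**Figure D4:**
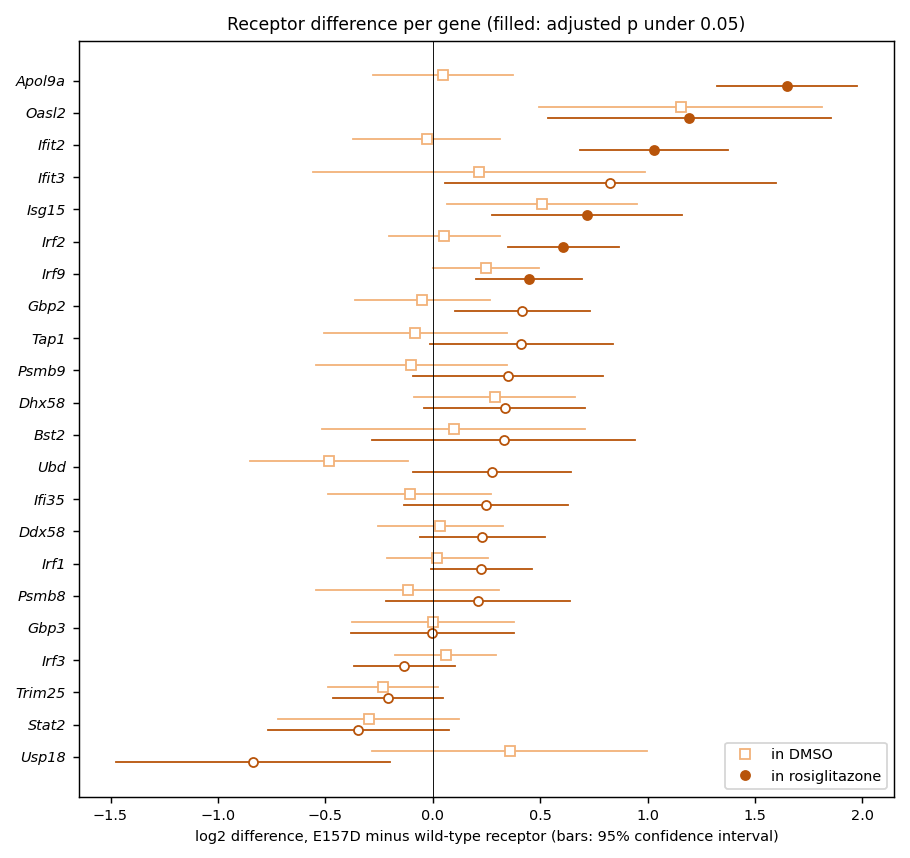
Log2 difference between E157D and wild-type receptor for 22 members in DMSO (squares) and in rosiglitazone (circles), with 95% confidence intervals and filled symbols past an adjusted p of 0.05. Only circles are filled, for Apol9a, Oasl2, Ifit2, Isg15, Irf2 and Irf9, and Usp18 has the lowest value in rosiglitazone.

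Further probes bore on 8 members, 12 probes in all. The second probe of Ifit2 fell by 1.00 with the wild-type receptor, was -0.39 with E157D, and its difference of 0.62 did not pass. The second probe of Gbp3 fell by 1.67 and by 1.04, and its receptor difference in rosiglitazone was 0.62 where that of the brighter probe was -0.0028. For Irf1, 4 further probes changed by -0.29 to -0.04 with the wild-type receptor and none passed. The second probe of Irf9 passed in none of the 3 comparisons in which Irf9 was called, with adjusted p = 0.16 with the wild-type receptor, 0.276 with E157D and 0.575 between the receptors in rosiglitazone. The second probe of Dhx58 passed in neither response (adjusted p = 0.0676 and 0.429). The second probe of Ifit3 was higher by 0.97 with E157D in rosiglitazone and passed (adjusted p = 0.0333), where the brighter probe did not. No further probe passed in the direction opposite to the probe used.

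Genes around the members on the same pathway were counted from lists, to be read against the shares of all features given above (14.4% lower and 12.3% higher in response to rosiglitazone with the wild-type receptor). Of the interferon and receptor genes 4 of 12 were tested, and Ifngr1, a chain of the interferon gamma receptor, fell by 0.44 (adjusted p = 0.0229) with the wild-type receptor and rosiglitazone. Of 9 tested signalling genes 4 fell in that comparison and 0 rose. They were Stat3, which transmits interleukin 6 signals, by 0.69, its target and feedback inhibitor Socs3 by 0.60, and the kinases Tyk2 by 0.44 and Jak2 by 0.38. No gene of either list passed in the other 4 comparisons.

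Of 10 tested genes of nucleic acid and pathogen sensing, 3 fell and 1 rose with the wild-type receptor, where 14.4% of all features fell and 12.3% rose. Irf5, a factor of Toll-like receptor signalling, fell by 1.02, the endotoxin receptor Tlr4 by 0.48 and the kinase Ikbke by 0.40, while the adaptor Myd88 rose by 0.65. In rosiglitazone Myd88 was -0.36 and Mavs, the mitochondrial adaptor of RIG-I, -0.39 with E157D relative to wild-type, both past the threshold.

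A list of 44 other interferon-stimulated effectors had 26 tested genes. With the wild-type receptor 7 of the 26 fell and 1 rose, against the same shares, among them the chemokine Ccl5 (-1.03, adjusted p = 0.0469), Uba7, the enzyme that activates ISG15 (-0.85, adjusted p = 0.003), Parp14, an ADP-ribosyltransferase (-0.80, adjusted p = 0.00744), and Pml, the organiser of nuclear bodies (-0.76, adjusted p = 0.000401). The median of the list was -0.42 against -0.029 over all features. With E157D 1 fell, Ifitm1, a membrane protein that blocks viral entry, by 0.53, and the list median was -0.24. In rosiglitazone 5 of the 26 were higher and 2 lower with E157D, where 10.5% of all features were higher and 9.26% lower. Ccl5 differed by 1.49, Apol9b by 1.14 (adjusted p = 0.00146) and Pml by 0.97, while Lgals3bp, a secreted galectin-binding protein, differed by -0.99. Lgals3bp was also the 1 gene of the list that passed in DMSO, at -0.63 (adjusted p = 0.0293). Apol9b, the near-identical gene beside Apol9a, differed by -0.44 with the wild-type and by 0.60 with the E157D receptor on rosiglitazone, and neither change passed.

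Of 10 tested antigen presentation genes, 2 fell and 2 rose with the wild-type receptor, close to the shares of all features (14.4% and 12.3%). B2m, the light chain of class I molecules, fell by 0.40 and H2-T23, a non-classical class I gene, by 0.34, while Nlrc5, the activator of class I genes, rose by 0.65 and Psme2, a subunit of the proteasome activator PA28, by 0.43. Nlrc5 also rose with E157D, by 0.88 (adjusted p = 0.0298), and H2-D1 was higher by 0.28 with E157D in rosiglitazone. Of the 3 constitutive proteasome subunits, which the immunoproteasome subunits replace, Psmb5 rose by 0.36 with the wild-type receptor. No gene of these 6 lists passed in the difference of the responses.

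Arrays of the same replicate number had levels that went together for some members. Ifit3, Bst2 and Psmb9 were lowest on replicate 1 in all 4 groups, 3 of the 22 tested members. The same held for 5.38% of all features. For Ifit3 the replicate 1 arrays read 7.47, 6.16, 8.002 and 7.06 in the order wild-type DMSO, wild-type rosiglitazone, E157D DMSO and E157D rosiglitazone, where the replicate 2 arrays read 8.46, 7.12, 8.68 and 8.07. Every replicate 1 array of Ifit3 was thus below the replicate 2 array of its group. Gbp2, Irf9 and Apol9a were lowest on replicate 1 in 2 of the 4 groups, and Irf9 and Apol9a on replicate 2 in the other 2. Irf1 and Irf3 were lowest on replicate 3 in 3 of the 4 groups.

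**Figure D5:**
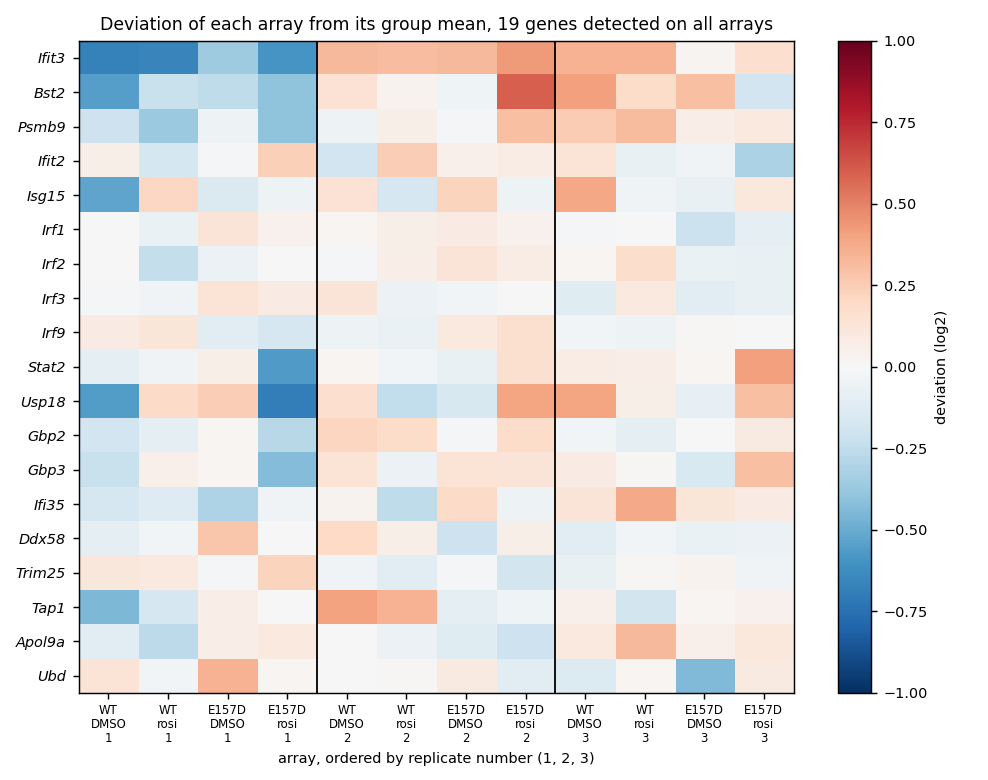
Deviation of each array from the mean of its group (log2, colour) for 19 members detected on all 12 arrays, with arrays ordered by replicate number. The replicate 1 columns are lowest for Ifit3, Bst2 and Psmb9 in all 4 groups, and in 2 of the 4 groups for Gbp2 and Irf9.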

How the data were processed

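Total RNA of 12 NIH-3T3 cultures was labelled with biotin and hybridised to 1-colour Illumina bead arrays, per the labels. Per the file headers, the authors deposited raw intensity values, not normalized between arrays, and 1 detection p-value beside each. Their second table of processed intensity values has an unstated method and served as an alternative. No column of per-sample values was left unused.

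Here intensities were background-corrected with normexp from the detection p-values, offset by 16, quantile-normalized and log2-transformed (neqc, limma 3.58.1, R 4.3.3); the authors deposited no log2 values. Quantile normalization hides a shift shared by all genes. The filter asked for a detection p under 0.05 on 3 or more arrays. A gene was read from its kept probe with the highest mean, which gave 13006 features, unnamed probes included. The platform annotation gives 1 symbol for 34885 probes, several for 18 and none for 10378. Of the probes with a symbol, 34807 matched the RefSeq table of GRCm38.p6 by gene number and 0 symbols changed.

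Group means were fitted with lmFit and eBayes (8 residual and 3.9 prior degrees of freedom), and Benjamini-Hochberg adjusted p under 0.05 over all features made a call. The pipeline was tested on simulated data. The number of arrays limits the precision. A probe undetected on every array of a group has a bound, the detected group's mean against the higher, per array, of its own value and the lowest detected level.

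All members are accounted for: those that passed in any comparison are named with values. From each further list at most 4 genes that passed are named per comparison. Members and lists were chosen with earlier results of these data known. Same-numbered arrays deviated together in wild-type cells (r from 0.129 to 0.239 over the 3 pairs of DMSO and rosiglitazone arrays, the limit for pairing being 0.1). This pairing comes from the data. In the other comparisons at least 1 pair lay below it.

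Alternatives were median scaling, no background correction, the authors' processed intensities, stricter and no detection filters, other handling of probes, a replicate block, array weights, and each array left out in turn. Median scaling used the median of all 45281 probes of an array, of which 36.7% to 39.6% were detected. That median thus lies among undetected probes.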

Additional observations from a re-analysis of the deposited data

Results flagged for a closer look

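Both members whose response to rosiglitazone differed between the receptors are listed because the test of that difference itself passed. For Apol9a the response with E157D exceeded that with the wild-type receptor by 1.60 on the log2 scale (limma adjusted p = 0.00245), and all 3 treated arrays moved in opposite directions with the 2 receptors. For Ifit2 the difference was 1.06 (limma adjusted p = 0.0297), with 3 of 3 treated arrays below the DMSO arrays for each receptor. The Apol9a probe may also read Apol9b, and the Ifit2 call ended in 10 of 21 alternatives. Apol9a had low raw signal, and its difference was 0.69 without background correction. Groups of 3 arrays are too small for a test of outlying arrays, and none was run.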

How the results depend on the processing

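Over the 22 members and 5 comparisons, no call changed direction in any alternative. Of the comparisons of single genes with their alternatives, 2191 kept their side of the threshold, 67 lost a call and 37 gained one. With median scaling 7 members were lower with the wild-type receptor and rosiglitazone in place of 11, 1 (Oasl2) was higher with E157D in DMSO in place of 0 and 9 were higher in rosiglitazone in place of 6. With the mean of a gene's probes 2 were lower with E157D and rosiglitazone in place of 4, and 1 differed in response in place of 2. Without background correction 1 (Oasl2) was higher in DMSO, 1 (Usp18) lower with E157D in rosiglitazone and 4 differed in response, Irf2 and Ubd being added. Among the members that fell with E157D and rosiglitazone, Ifit2 was gained and Dhx58 lost without that correction. The authors' processed intensities also gave 1 higher in DMSO and 1 lower in rosiglitazone, and detection on all 12 arrays gave 1 lower in rosiglitazone. The cause of these changes was not tested.

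Leaving out each array in turn gave 6 to 12 lower with the wild-type receptor and rosiglitazone, 1 to 2 higher with E157D and rosiglitazone, 3 to 6 higher (3 without E157D rosiglitazone array 2) and 0 to 1 lower with E157D in rosiglitazone (1 without wild-type DMSO array 1), and 1 to 2 in the difference of responses. The replicate block gave 5 lower members with E157D and rosiglitazone in place of 4 (Ifit3 added, -0.71, adjusted p = 0.0117) and 8 higher in rosiglitazone in place of 6 (Gbp2 and Ifit3 added, 0.42 and 0.83), where the arrays share only a number. The same block gave 428 lower features in place of 233 in the first of these comparisons and 1668 higher in place of 1367 in the second. Over all features, the 533 calls with E157D and rosiglitazone became 928 without background correction, 867 with the authors' intensities and 820 with the block. The 146 calls in DMSO became 219, 229 and 233, and 240 with array weights, and the 310 of the difference 657, 678 and 471, and 194 with median scaling. Leaving out each array in turn gave 231 to 585 calls with E157D and rosiglitazone (lowest without E157D rosiglitazone array 1, and under 533 by over 1.5 times also without array 3 or any E157D DMSO array), 78 to 164 in DMSO (by over 1.5 times without wild-type array 1 or 3 or E157D array 2 or 3), 1618 to 2655 of 2571 in rosiglitazone (1618 without wild-type array 1) and 184 to 304 in the difference (by over 1.5 times without wild-type DMSO array 2 or 3, wild-type rosiglitazone array 1, any E157D DMSO array or E157D rosiglitazone array 2). Signal near background limits Dhx58, Psmb8 and Oasl2, detected on 7, 4 and 11 of 12 arrays. Low signal also bears on Apol9a, Usp18 and Tap1, though these were detected on all 12 arrays. Raw Apol9a intensities were 196, 215 and 219 on the wild-type rosiglitazone arrays, and Usp18 and Tap1 read 186 on wild-type DMSO array 1. Members never detected reached a raw intensity of 198, for Oasl1.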
